A study of Mus musculus with 4 samples.

Results

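Regulatory T (Treg) cells of the spleen carrying Foxp3 RNA and outside mitosis were compared between mice of 12 days and 7 weeks. The cells were chosen by measured values in each spleen library. A barcode was kept with at least 500 detected genes, at most 10% mitochondrial UMIs (unique molecular identifiers, each counting 1 captured RNA molecule), at least 1 Foxp3 UMI and fewer than 8 UMIs summed over the 9 mitosis genes Ccnb1, Ccnb2, Cdc20, Cenpf, Ube2c, Tpx2, Birc5, Top2a and Mki67. This left 4039 of 7720 barcodes at 12 days (52.3%) and 3782 of 6163 at 7 weeks (61.4%), together 7821 of the 24546 barcodes of the series. Levels of Foxp3 and of the 9 mitosis genes are therefore given only as a description.

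The series profiled sorted CD4+Foxp3GFP+ cells from liver and spleen, with 1 library for each tissue and age. All mice were C57BL/6 with a GFP tag on Foxp3. The 12-day mice are described as Foxp3GFP-Cre Rosa26loxP-Stop-loxP-YFP, in which cells that have expressed Foxp3 can be marked by YFP. That reporter genotype is not given for the 7-week mice, whose stage label reads "aged". Neither the number of mice pooled in a library nor their sex is stated. Age, genotype and library cannot be told apart, since each age is 1 library. No test or p-value is given, and every interval is an exact 95% interval for counting error alone.

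Treg cells restrain immune responses and depend on the transcription factor Foxp3. Those made around birth seed tissues and persist as a population that maintains self-tolerance. After birth the thymus continues to export Treg cells to the spleen, while exposure to microbes and tissue antigens drives part of the pool from a resting state, which recirculates through lymphoid organs, to an effector state. Interferons, secreted during infection and at a low tonic level in health, act through receptors and STAT proteins to switch on antiviral genes. Many of those genes carry an interferon-stimulated response element (ISRE) in the promoter.

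The summed UMIs of each library were expressed as counts per 1000000 UMIs (CPM), and a ratio is the 12-day CPM over the 7-week CPM. Of 32285 features, 7311 had a mean of at least 10 CPM over both libraries. Among these, 124 genes (1.70%) were at least 2-fold higher at 12 days and 191 (2.61%) at least 2-fold lower. At a 1.5-fold limit the counts were 567 (7.76%) and 755 (10.3%), and 3859 genes (52.8%) had a ratio above 1. The median log2 ratio was 0.03, with 5% of genes below -0.81 and 5% above 0.68. These shares are the background for the counts of each gene list.

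**Figure D1:**
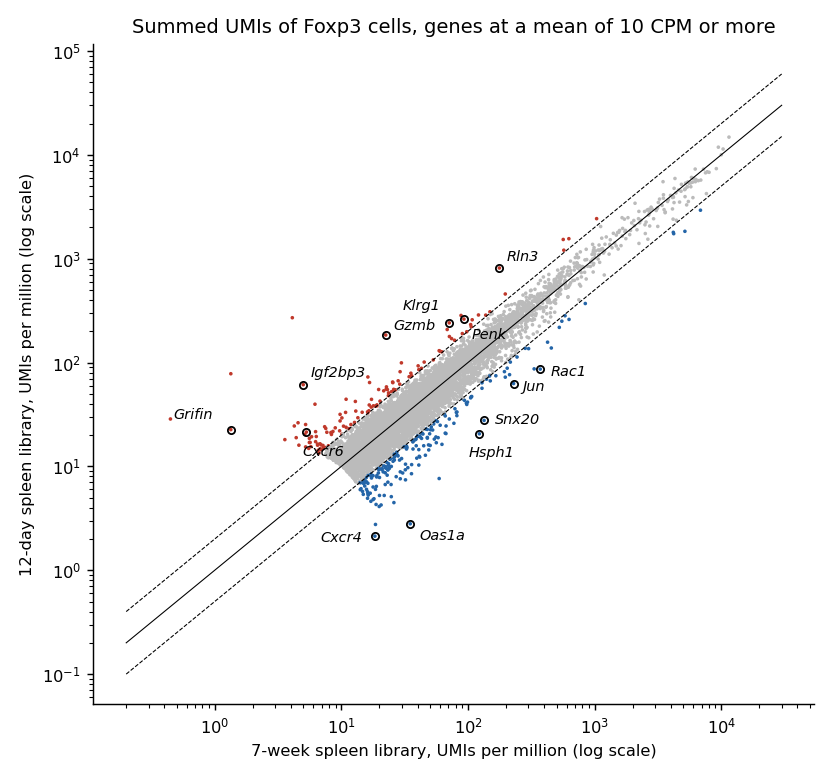
Each point is 1 of 7311 genes, placed by its CPM in the 7-week (horizontal, log scale) and the 12-day (vertical, log scale) spleen library. The solid line marks equal levels and the dashed lines 2-fold differences, with the 124 genes at least 2-fold higher at 12 days in red and the 191 at least 2-fold lower in blue. Igf2bp3, Gzmb and Rln3 lie above the lines and Oas1a, Cxcr4, Hsph1 and Rac1 below them.

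Several measurements of the whole libraries moved with age. The 12-day cells were deeper, with a median of 4825 UMIs and 1834 genes per cell against 3117 UMIs and 1331 genes (22114567 and 13410247 UMIs in all). Xist, which silences one X chromosome in females, stood at 290 CPM at 12 days and 150 CPM at 7 weeks, and the Y-linked Ddx3y at 7.96 and 27.1 CPM, so neither library came from a single sex. The haemoglobin gene Hbb-bs was at 270 against 4.10 CPM, but at 12 days 10 cells held 94.7% of it. The log2 ratio also varied with the length of the longest coding transcript (Spearman correlation -0.491 over 7128 genes, which share both libraries). Medians were 0.26 for genes of 1000 to 2000 bases and -0.27 above 4000 bases, but -0.13 for the 39 genes of at most 500 bases. After each ratio was centred on genes of like length, 79 genes were past 2-fold upward and 154 past 2-fold downward. The part of depth, sex or transcript length in single ratios was not tested.

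Markers of Treg cells were present at both ages, but the choice of cells had required a Foxp3 UMI. The 8 Treg markers summed to 4514 CPM at 12 days and 4738 CPM at 7 weeks, and none was at 0. They include Foxp3, as well as Cd3e and Cd4, which other CD4 T cells share. The sum is therefore no independent support for the label of Treg cells. Summed markers of B cells were at 552 and 568 CPM, of macrophages and monocytes at 77.0 and 61.4 CPM, of dendritic cells at 143 and 148 CPM, of neutrophils at 1.22 and 0.298 CPM, and of hepatocytes at 0.543 and 0.224 CPM. At 12 days Ighm gave 401 CPM of the B cell sum. Cst3 alone gave 130 and 129 CPM of the dendritic cell sums, and 3 and 4 of the 8 dendritic cell markers were at 0. Erythroid markers summed to 403 and 10.4 CPM. Cells with 2 or more B cell UMIs were 53.8% and 42.3% and those with 2 or more dendritic cell UMIs 17.9% and 8.91%, at the unequal depths above. Leaving out cells with 2 or more UMIs of other lineages kept 45.8% and 60.6% of the members, or 86.7% and 94.1% with Ighm not counted. The lineages were B cells, CD8 T cells, macrophages and monocytes, neutrophils, erythroid cells and megakaryocytes, without Ccr2, Ly6c2 and Cd74. Markers of dendritic cells, NK cells, stroma and hepatocytes were not counted, apart from genes shared with those lists. Cells with 7 mitosis UMIs, just inside the limit, numbered 17 and 4, and those with 8, just outside, 12 and 3. The limit removed 256 of the otherwise eligible cells at 12 days (5.96%) and 46 at 7 weeks (1.20%). The spleen libraries had 25 member barcodes in common, and without barcodes found in both libraries the counts were 123 and 192.

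The clearest group difference lay in the interferon response, which was lower at 12 days. Each of the 27 measured type I interferon response genes had a ratio below 1. Of these, 11 were at least 2-fold lower and 22 at least 1.5-fold lower, none was 1.5-fold higher, and the median log2 ratio was -0.82 against 0.03 over all genes tested. The median stayed between -0.99 and -0.73 under each of the 23 alternative settings of the processing.

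For the interferon genes with the lowest ratios, the promoter is shown first, because the ISRE is the known element of this response. The 250 bases before the transcription start are from RefSeq on GRCm38.p6, on the strand of the gene, and capitals mark matches to the ISRE core GAAANNGAAA, in which N is any base. Oas1a and Ifit3 are the lowest members of the list. The Oas1a window is chr5:120907526-120907775 on the minus strand, and the Ifit3 window is chr19:34583279-34583528 on the plus strand.
Oas1a: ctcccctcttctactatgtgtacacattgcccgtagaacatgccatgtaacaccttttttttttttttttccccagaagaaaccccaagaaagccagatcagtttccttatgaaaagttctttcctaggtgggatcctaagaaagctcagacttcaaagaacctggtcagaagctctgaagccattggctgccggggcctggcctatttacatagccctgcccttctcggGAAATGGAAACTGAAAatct
Ifit3: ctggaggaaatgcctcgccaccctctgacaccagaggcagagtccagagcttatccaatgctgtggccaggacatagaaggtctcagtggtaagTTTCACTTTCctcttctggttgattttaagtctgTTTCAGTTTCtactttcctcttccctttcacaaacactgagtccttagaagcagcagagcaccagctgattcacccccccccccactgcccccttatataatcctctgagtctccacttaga
In the Oas1a window 2 overlapping matches lie 20 and 14 bases before the start, and in the Ifit3 window 2 separate matches lie 156 and 122 bases before it.

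The same core was found in 3.46% of all 27025 genes of the promoter table, searching both strands of the 250 bases. Of the 20 type I interferon genes with a promoter entry 11 held it (55.0%), as did 10 of 15 interferon-inducible GTPase and gamma response genes (66.7%). It occurred in 21 of 138 genes at least 2-fold lower at 12 days (15.2%) and in 3 of 92 genes at least 2-fold higher (3.26%). One of those 3 is Igf2bp3, with a match 70 bases before its start. The gamma-activated site TTCNNNGAA was present in 8.13% of all genes, in 8 of the 15 GTPase and gamma response genes (53.3%) and in 4 of the 20 type I genes. Among genes at least 2-fold lower at 12 days it was in 10 of 138 (7.25%), close to the share of all genes. It was in 4 of the 92 genes at least 2-fold higher (4.35%). A match describes these letters only. In 57.6% of the 32851 windows, the bases after the start matched the opening part of a GENCODE transcript of the same symbol. The other windows may not sit at a start that GENCODE lists.

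Oas1a, an antiviral enzyme that makes the activator of RNase L (ENSMUSG00000052776; GRCm38 chromosome 5, 120896256 to 120907521), stood at 2.80 CPM at 12 days and 35 CPM at 7 weeks. It was 12.5-fold lower at 12 days [9.56 to 16.5], the lowest ratio of any named gene. Ifit3 was at 2.76 against 18.6 CPM (6.73-fold lower [5.07 to 9.06]) and Ifit1 at 12.5 against 41.2 CPM (3.29-fold lower [2.84 to 3.81]); both bind or sense viral RNA, and reads of Ifit3 can be shared with its near copy Ifit3b. Usp18, which removes ISG15 and damps interferon signalling, was at 10.3 against 40.9 CPM (3.99-fold lower [3.41 to 4.68]). In the 7-week library 10 cells held 26.1% of the Ifit3 UMIs but 8.32% of those of Oas1a.

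Transducers of the response were also lower. Stat2 was at 15.2 against 33.0 CPM (log2 ratio -1.11, or -0.81 in cells thinned to 1000 UMIs), Irf9 at 62.9 against 100 CPM and Irf7 at 44.0 against 72.6 CPM. Among the abundant members, Ifi27l2a was at 1539 against 2633 CPM and Bst2, which tethers budding virus, at 74.6 against 166 CPM (log2 ratio -1.15, or -0.89 in cells with a Y-gene UMI). Isg20 had the ratio nearest to 1 in the list, at 69.7 against 75.8 CPM.

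GTPases that act on vacuoles of intracellular pathogens, together with other interferon gamma targets, gave 9 of 21 members at least 2-fold lower at 12 days and 16 at least 1.5-fold lower. Irf8, a transcription factor, was 1.5-fold or more in the other direction, at 40.9 against 25.7 CPM. The list's median was -0.96. Gbp10 stood at 4.25 against 20.6 CPM (4.84-fold lower [3.82 to 6.19], log2 ratio -2.28 but -1.47 in the effector range) and Tgtp1 at 20.9 against 66.1 CPM (3.16-fold lower [2.82 to 3.54]). Iigp1, of the same family and outside the list, was at 7.64 against 59.2 CPM (7.75-fold lower [6.55 to 9.20]). Gbp and Tgtp genes have near copies, and Irgm2 overlaps Igtp on the same strand, so single members are uncertain. The receptor chains differed little, with Ifngr1 at 266 against 247 CPM and Ifngr2 at 41.1 against 39.4 CPM.

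Neighbouring immune genes lay on the same side. Casp1 and Casp4, the inflammatory caspases, stood at 5.25 against 21.8 CPM (4.15-fold lower [3.34 to 5.19]) and at 4.30 against 18.8 CPM (4.37-fold lower [3.44 to 5.60]). Of 20 genes of MHC class I and antigen processing 17 had a ratio below 1, but only H2-Q6 (113 against 244 CPM) and H2-Q7 (282 against 584 CPM) were at least 2-fold lower, and this pair is nearly identical in sequence. In the effector range both missed 2-fold, with log2 ratios of -0.84 and -0.96. H2-K1 was at 3012 against 4119 CPM and H2-D1 at 2744 against 2708 CPM. Ly6a, known as Sca-1 and induced by interferon, was at 218 against 526 CPM (2.41-fold lower [2.32 to 2.50]).

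**Figure D2:**
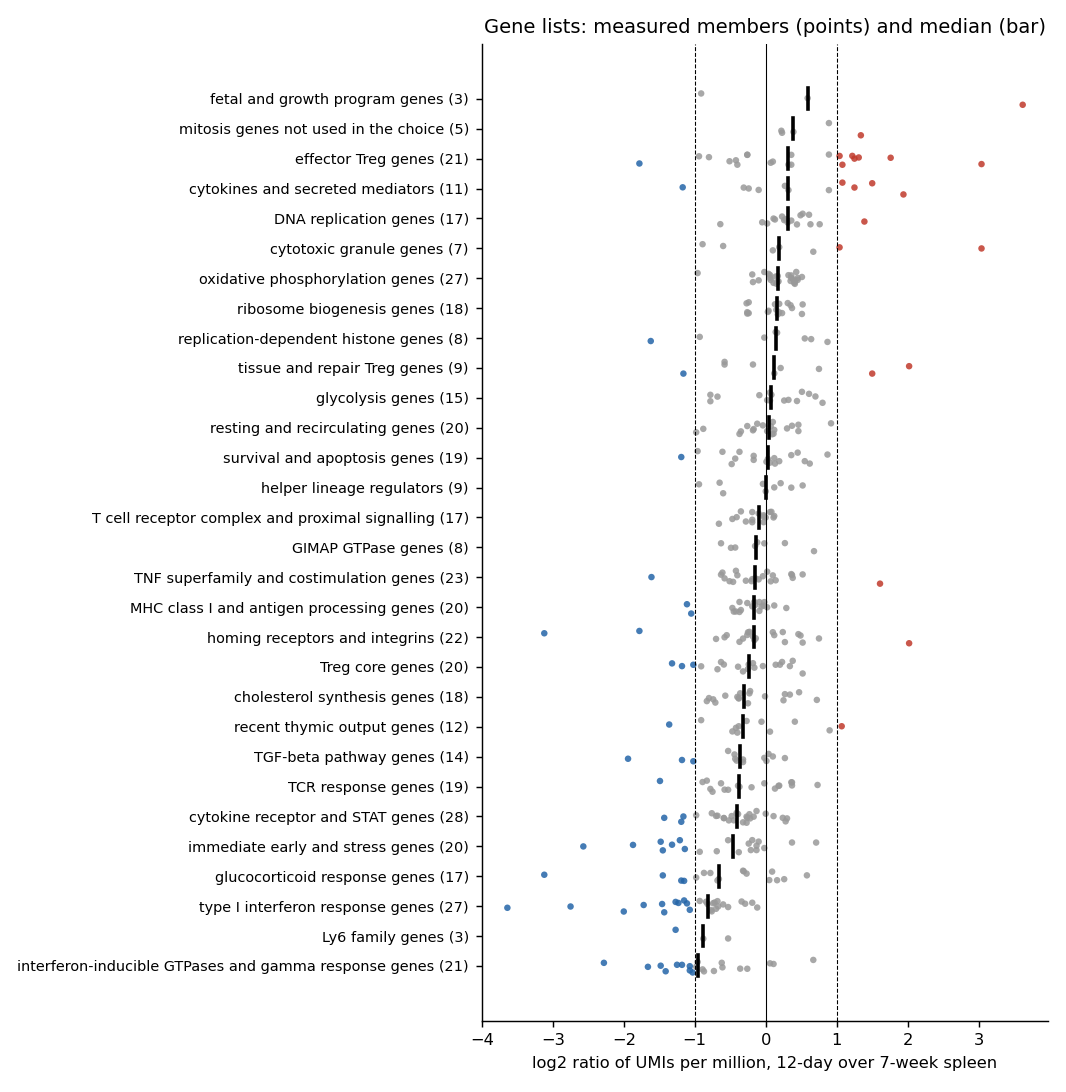
Log2 ratio of CPM, 12-day over 7-week spleen, for the measured members (points, with their number in brackets) and the median (black bar) of 30 gene lists. Members at least 2-fold higher at 12 days are red and those at least 2-fold lower are blue. The interferon lists lie lowest among lists of more than 3 members, with medians of -0.96 and -0.82, and the effector list spreads from -1.78 to 3.04.

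In the other direction, a gene of the fetal program had one of the highest ratios. Igf2bp3, an RNA-binding protein of embryonic tissue whose RNA is a target of Lin28b in fetal blood cells (ENSMUSG00000029814; chromosome 6, 49085223 to 49214957), stood at 61.2 CPM at 12 days and 5.0 CPM at 7 weeks. It was 12.3-fold higher at 12 days [9.59 to 15.9]. The UMIs were spread over the cells at 12 days, where 10 cells held 3.18% of them, against 26.9% at 7 weeks. The log2 ratio of 3.62 ranged from 3.33 to 4.30 over the alternatives. Malsu1, which overlaps Igf2bp3 on the opposite strand, was at 51.8 against 46.5 CPM.

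Few other fetal genes could be measured. Of the 21 genes in the list 3 passed the level filter, and 6 had no UMI in these cells. Hmga1, a chromatin protein of growing cells, was at 122 against 81.4 CPM (log2 ratio 0.59), and Igf1r, the receptor of insulin-like growth factor 1, was at 17.3 against 32.4 CPM (1.88-fold lower [1.63 to 2.16]). The median over these 3 says little of the list as a whole.

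Other genes with the highest ratios at 12 days come from unrelated families. Grifin, a galectin-related gene known from the lens, was at 22.6 against 1.34 CPM (16.8-fold higher [10.5 to 28.6]). Rln3, a relaxin hormone gene, was the most abundant, at 813 against 177 CPM (4.58-fold higher [4.39 to 4.78]). Rln3 lies 340 bases from Il27ra on the same strand, and Il27ra itself stood at 87.3 against 125 CPM. Whether reads from that neighbour reach the Rln3 count was not tested.

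The cytoskeletal genes Actg2 (smooth muscle gamma-actin), Fhl2 (a LIM-domain cofactor) and Rhoc (a small GTPase) were 6.42-, 5.05- and 4.07-fold higher at 12 days. Slc43a1, an amino acid transporter, was 5.78-fold higher, Ltb4r1, the receptor for leukotriene B4, 5.77-fold, Cela1, a protease, 4.85-fold, and Ddc, which makes dopamine and serotonin, 4.30-fold. Rasip1 was 3.94-fold and the antisense gene Slc36a3os 3.44-fold higher. In these 9 genes, 10 cells held 13.7% to 43.9% of their 7-week UMIs. In the resting range the log2 ratio of Ltb4r1 went from 2.53 to 1.09, and in cells with an Xist UMI that of Cela1 went from 2.28 to 1.53. Rasip1 and Slc36a3os overlap other genes, so their counts are uncertain.

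**Figure D3:**
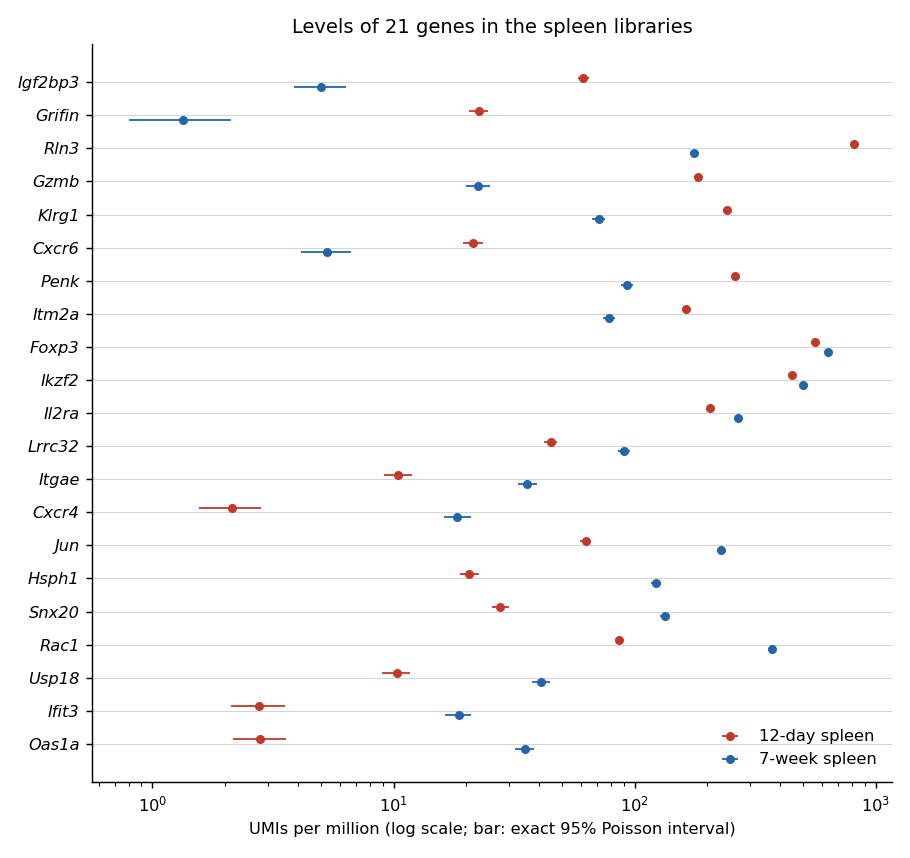
CPM (log scale) of 21 genes in the 12-day (red) and the 7-week (blue) spleen library, with exact 95% Poisson intervals that cover counting error only. Igf2bp3 at 61.2 against 5.0 CPM is higher at 12 days and Oas1a at 2.80 against 35 CPM is lower. Foxp3 at 561 against 636 CPM differs less.

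Members of the effector program differed in both directions. In the effector list 7 of 21 measured genes were 2-fold or more higher, 1 was 2-fold or more lower, and the median was 0.32. It was 0.13 after centring on transcript length, and over the 11 members that do not define the resting and effector ranges below it was -0.05 and -0.19 within them. Gzmb, the protease granzyme B (chromosome 14, 56258838 to 56262260), stood at 184 CPM at 12 days and 22.4 CPM at 7 weeks (8.21-fold higher [7.30 to 9.26]). Klrg1, an inhibitory receptor of terminally differentiated cells, was at 241 against 71.1 CPM (3.39-fold higher [3.16 to 3.63]). S100a6 and S100a4, calcium-binding proteins, were at 1557 against 626 CPM and at 457 against 197 CPM, and Lgals1, galectin-1, was at 1207 against 571 CPM. Without cells carrying RNA of other lineages the log2 ratio of Klrg1 went from 1.76 to 0.76, that of S100a6 from 1.31 to 0.67 and that of S100a4 from 1.22 to 0.33, all short of 2-fold. With Ighm left out of those lineage genes they were 1.77, 1.31 and 1.06. Lgals1 was at 0.96 in cells with an Xist UMI. Gzmb stayed past 2-fold, lowest at 2.19 in cells with a Y-gene UMI.

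Itgae, the integrin chain CD103 that binds epithelial E-cadherin, was the member on the other side, at 10.4 against 35.9 CPM (3.44-fold lower [2.94 to 4.04]). Maf, a transcription factor of Il10 and of intestinal Treg cells, was at 81.7 against 157 CPM. The checkpoint receptors Lag3 and Pdcd1 were at 50.2 against 87.4 CPM and at 76.1 against 108 CPM. Icos was at 152 against 201 CPM and Prdm1 at 9.45 against 12.7 CPM.

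Secreted mediators gave 4 of 11 members at least 2-fold higher and 1 lower. Lgals3 was at 64.2 against 16.7 CPM (3.84-fold higher [3.33 to 4.44]), Penk, the enkephalin precursor, at 262 against 92.9 CPM (2.82-fold higher [2.66 to 3.0]) and Ccl5 at 287 against 121 CPM (2.38-fold higher [2.26 to 2.52]). Csf1, the macrophage growth factor, was at 9.95 against 22.4 CPM (2.25-fold lower [1.88 to 2.69]). These UMIs were concentrated in few cells at 7 weeks: 10 cells held 44.2% of the Gzmb, 37.6% of the Ccl5, 34.9% of the Penk and 33.9% of the Lgals3 UMIs. Several of these calls depended on the cells counted. The log2 ratio of Lgals3 went from 1.94 to 0.65 without cells carrying RNA of other lineages (1.80 with Ighm not counted) and to 0.83 in the resting range. Ccl5 went from 1.25 to 0.87 in cells with an Xist UMI, and Csf1 from -1.17 to -0.89 in cells thinned to 1000 UMIs. Tgfb1 was at 191 against 158 CPM.

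Of 7 cytotoxic granule genes, Gzmb and Nkg7, a granule membrane protein, were at least 2-fold higher at 12 days, Nkg7 at 127 against 62.0 CPM (2.05-fold [1.90 to 2.22]). The median of 0.19 turned to -0.04 after centring on length, and to -0.08 in the effector range over the 6 members that do not define it. Nkg7 missed 2-fold without cells carrying RNA of other lineages (log2 ratio 0.59) and in cells with a Y-gene UMI (0.51). Serpinb9, the inhibitor that protects cells from granzyme B, was lower, at 8.09 against 15 CPM (1.85-fold [1.51 to 2.28]). Cd160, a receptor of cytotoxic lymphocytes, was at 33.1 against 10.8 CPM (3.06-fold higher [2.55 to 3.68]). Markers of NK cells summed to 1.27 and 2.76 CPM (28 and 37 UMIs) and of CD8 T cells to 21.4 and 24.0 CPM. Cells with 2 or more such UMIs were 0.173% and 0.132% for NK cells, and 1.41% and 0.793% for CD8 T cells, at unequal depth.

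Receptors for migration differed in both directions. Of 22 homing receptors and integrins 1 was at least 2-fold higher at 12 days and 2 were at least 2-fold lower, and the median was -0.17. Cxcr6, the receptor for Cxcl16, was at 21.4 against 5.29 CPM (4.05-fold higher [3.15 to 5.27]). Its log2 ratio of 2.02 became 1.17 without cells carrying RNA of other lineages. It overlaps Fyco1 on the opposite strand, which was at 25.2 against 21.6 CPM. Ccr8, a receptor of skin and activated Treg cells, was at 91.6 against 54.4 CPM (1.69-fold higher [1.55 to 1.84]). Cxcr4, the receptor for Cxcl12 that retains cells in marrow, was at 2.13 against 18.4 CPM (8.67-fold lower [6.32 to 12.1]). The lymph node entry receptor Ccr7 was at 195 against 180 CPM, and S1pr1, which guides exit, was at 198 against 144 CPM.

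Immediate early and stress genes were lower at 12 days, with 7 of 20 at least 2-fold lower, none at least 2-fold higher, and a median of -0.46. Jun, part of the AP-1 complex, was at 62.8 against 229 CPM (3.65-fold lower [3.42 to 3.89]), Fos at 88.2 against 204 CPM and Fosb at 14.7 against 36.8 CPM. Fos missed 2-fold in the resting range defined below (log2 ratio -0.93) and Fosb in cells with a Y-gene UMI (-0.95). Dusp1, a phosphatase that switches off MAP kinases, was at 72.3 against 197 CPM (2.73-fold lower [2.56 to 2.90]). Jund, another Jun protein, lay the opposite way at 446 against 272 CPM, and Egr1 was at 94.0 against 95 CPM. Such genes also respond to handling and digestion of tissue, and the part of sample preparation was not tested.

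The lowest member of this list was Hsph1. Hsph1, a heat shock protein of the Hsp110 family (chromosome 5, 149614287 to 149636376), stood at 20.6 CPM at 12 days and 123 CPM at 7 weeks (5.95-fold lower [5.36 to 6.62]). Dnajb1, a co-chaperone, was at 76.4 against 213 CPM (2.78-fold lower [2.62 to 2.96]) and Hsp90aa1 at 250 against 551 CPM, with a log2 ratio of -1.14 that was -0.85 in cells with an Xist UMI. The heat shock element GAANNTTCNNGAA was found in 0.514% of all promoter entries by gene and in 2 of 138 genes at least 2-fold lower (1.45%). That share rests on those 2 genes. The element was in 0 of the 17 immediate early and stress genes with a promoter entry.

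Glucocorticoid response genes followed, with 4 of 17 at least 2-fold lower and a median of -0.66. Tsc22d3, the glucocorticoid-induced leucine zipper, was at 136 against 301 CPM (2.22-fold lower [2.12 to 2.33]) and Btg1, which slows growth, at 370 against 844 CPM (2.28-fold lower [2.22 to 2.35]). Tsc22d3 missed 2-fold in the resting range (log2 ratio -0.91) and Btg1 after centring on length (-0.95). Fkbp5 was at 12.4 against 19.7 CPM and the receptor gene Nr3c1 at 40.4 against 73.7 CPM. Cxcr4 and Dusp1 belong to this list as well. Map3k8 lay the other way, at 17.6 against 11.8 CPM.

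Within the core of Treg identity, Foxp3, Ikzf2, Ctla4 and Il2ra differed by less than 1.5-fold. Foxp3, which the choice of cells used, stood at 561 and 636 CPM (1.13-fold lower at 12 days [1.10 to 1.17]). Ikzf2 (Helios) was at 448 against 501 CPM, Ctla4 at 321 against 329 CPM and Il2ra, the alpha chain of the IL-2 receptor, at 206 against 269 CPM (1.31-fold lower [1.25 to 1.36]). Of the 20 core genes 3 were at least 2-fold lower (2.61% over all genes tested) and 7 at least 1.5-fold lower (10.3% over all). None was at least 1.5-fold higher, and the median was -0.24, against 0.10 in liver. Those 3 were Nt5e, the ectoenzyme CD73 that makes adenosine (28.6 against 71.2 CPM), Itgb8 (8.64 against 19.6 CPM) and Lrrc32, the anchor GARP of latent TGF-beta (44.8 against 90.6 CPM). The log2 ratio of Lrrc32 was -1.02, at the limit, and -0.63 in the effector range, and that of Itgb8 went from -1.18 to -0.76 in the resting range. The costimulatory receptors Tnfrsf4 (828 against 576 CPM) and Tnfrsf18 (538 against 413 CPM) were the core genes with the highest ratios.

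Both Lrrc32 and Itgb8 act in the release of active TGF-beta, and the wider pathway had 3 of 14 members at least 2-fold lower with a median of -0.36, or -0.08 after centring on length. The third was Zfp36l2, an RNA-decay factor, at 86.9 against 333 CPM (3.83-fold lower [3.63 to 4.05]). The receptor Tgfbr1 was at 43.1 against 42.1 CPM and Tgfbr2 at 64.7 against 80.6 CPM. The transducers Smad2, Smad3 and Smad4 had log2 ratios of 0.01, 0.10 and -0.02.

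Cytokine receptors and their STAT proteins gave 3 of 28 members at least 2-fold lower, 9 at least 1.5-fold lower and none 1.5-fold higher (median -0.40). Il7r, the receptor for the survival cytokine IL-7, was at 119 against 235 CPM (1.97-fold lower [1.87 to 2.07]). Il18r1 was at 9.32 against 20.9 CPM, a log2 ratio of -1.16 that was -0.63 in cells with a Y-gene UMI, Il10ra at 43.6 against 69.6 CPM and Il4ra at 47.8 against 72.2 CPM. The shared chain Il2rg was at 771 against 770 CPM. Mcl1, a survival factor, was at 56.5 against 129 CPM (2.28-fold lower [2.12 to 2.45]), while Bcl2 was at 141 against 159 CPM and Bcl2l1, which encodes Bcl-xL, at 47.0 against 25.7 CPM (1.83-fold higher [1.62 to 2.08]).

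T cell receptor signalling genes lay nearer to equality. None of the 17 genes of the receptor complex and its proximal kinases was 2-fold different, with Cd3e at 1373 against 1316 CPM, Zap70 at 250 against 236 CPM and Cd4 at 146 against 178 CPM. Among 19 genes induced by receptor signals 1 was at least 2-fold lower and 6 at least 1.5-fold lower (median -0.37). That gene was Nr4a2 (6.33 against 17.8 CPM; log2 ratio -1.49, but -0.91 with no limit on Foxp3), whereas its relative Nr4a1 stood at 132 against 116 CPM. Cd69 was at 128 against 238 CPM, and Dusp5 was the member at least 1.5-fold higher, with a log2 ratio of 0.73. Without cells carrying RNA of other lineages the median of this list was -0.02.

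The resting list lay close to the all-gene median and the thymic output list below it. The 20 resting and recirculating genes had a median of 0.04, which turned to -0.02 when abundant gene classes were left out of the totals, and none was 2-fold different. Klf2, which drives S1pr1, was at 620 against 584 CPM, Lef1 at 202 against 164 CPM and Tcf7 at 109 against 112 CPM. Of the 20 thymic output genes 12 were measured, with a median of -0.32. This median was -0.09 after centring on length, -0.15 without cells carrying RNA of other lineages and 0.06 in liver. Itm2a was at least 2-fold higher (164 against 78.3 CPM, 2.09-fold [1.95 to 2.24]) and Plac8 at least 2-fold lower (5.74 against 14.7 CPM). The log2 ratio of Plac8 went from -1.36 to -0.61 without cells carrying RNA of other lineages, and that of Itm2a from 1.07 to 0.96 in cells with an Xist UMI, both short of 2-fold. Sox4, a transcription factor of immature T cells, was at 15.7 against 8.43 CPM (1.86-fold higher), and Nrp1, a marker of thymus-derived Treg cells, at 70.7 against 133 CPM (1.88-fold lower [1.76 to 2.01]). Among helper lineage regulators none was 2-fold different, and Id3, an inhibitor of E proteins, was highest at 369 against 257 CPM.

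Although cells in mitosis had been left out, genes of DNA replication were above 1 in 15 of 17 cases, with Ung at 23.5 against 8.95 CPM (2.62-fold higher [2.15 to 3.23]), Mcm3 at 62.4 against 36.8 CPM and Mcm4 below 1 at 38.8 against 60.3 CPM. The log2 ratio of Ung went from 1.39 to 0.91 with equal weight per cell. The list's median of 0.31 became 0.76 with no limit on mitosis genes. At 12 days 80.9% of the cells had no UMI of the 9 mitosis genes, against 90.0% at 7 weeks. The choice of cells had used these 9 genes and the libraries differ in depth, so these shares are a description only. Hist1h2ap, a replication-dependent histone, was at 18.9 against 58.1 CPM, a log2 ratio of -1.62 that turned to 0.26 when cells in mitosis were included.

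Metabolic lists contained no gene at least 2-fold different in these libraries. Of 27 oxidative phosphorylation genes 22 had a ratio above 1 (median 0.17, but -0.04 after centring on length), with Sdhb at 267 against 187 CPM and Atp5k at 112 against 218 CPM. Glycolysis genes had a median of 0.08, or -0.05 in cells with an Xist UMI, with Tpi1 at 142 against 81.8 CPM and Gapdh at 696 against 1192 CPM. Cholesterol synthesis genes had a median of -0.30, with Hmgcs1 at 16.8 against 29.8 CPM and Mvd at 33.5 against 20.3 CPM. Ribosome biogenesis genes had a median of 0.16, or -0.02 in cells with fewer than 4 DNA replication UMIs, with Myc at 123 against 95.4 CPM.

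The remaining lists held few large differences. Of 23 TNF superfamily and costimulation genes Cd160 was 2-fold or more higher and Tnfsf8, the CD30 ligand, 3.04-fold lower at 12 days (median -0.15). Tissue and repair genes had 2 of 9 members higher, Cxcr6 and Penk, and Il18r1 lower. Their median of 0.12 turned to -0.21 without cells carrying RNA of other lineages and to -0.10 in the effector range. The 5 measured mitosis genes outside the choice were above 1 (median 0.39), and 8 histone genes had a median of 0.15, or -0.10 after centring on length. Survival genes had a median of 0.03, or -0.11 after the same centring, GIMAP genes of -0.14, and the 3 Ly6 genes of -0.88.

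Other genes with the lowest ratios belong to no list. Rac1, a GTPase that remodels actin (chromosome 5, 143503634 to 143528036), stood at 86.4 against 372 CPM (4.30-fold lower [4.08 to 4.54]). Snx20, a sorting nexin that binds the selectin ligand PSGL-1, was at 27.7 against 134 CPM (4.83-fold lower [4.41 to 5.30]), and Tmed7, a cargo receptor, at 7.42 against 32.1 CPM (4.33-fold lower [3.61 to 5.22]). Tmed7 overlaps Ticam2 on the same strand and Rac1 overlaps Daglb on the opposite strand. Also among the lowest were Prg4 (lubricin) at 4.48 against 26 CPM, which overlaps the abundant Tpr on the opposite strand, Sccpdh at 5.11 against 24.8 CPM and Ccdc117 at 8.50 against 35.8 CPM. The log2 ratio of Sccpdh went from -2.28 to -1.29 in the resting range, and that of Prg4 from -2.54 to -1.93.

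A sum over cells takes in the mix of cell states, which was described with a score. A cell was put in a resting range when its UMIs of resting genes, among them Ccr7, S1pr1, Klf2, Lef1 and Tcf7, outnumbered those of Icos, Maf, Klrg1, Gzmb, Itgae, Ccl5, S100a4, S100a6, Lgals1 and Id2, and in an effector range in the opposite case. The resting range held 50.8% of the cells at 12 days and 56.9% at 7 weeks, and the effector range 46.0% and 36.9%. After thinning each cell to 1000 UMIs the shares were 41.5% and 47.5%, and 44.5% and 33.8%. These are ranges of a score and not cell types, and 9.68% and 16.8% of the cells lay within 1 UMI of the limit. Of the score's effector genes, Gzmb, Klrg1, Ccl5, S100a4, S100a6 and Lgals1 were themselves higher at 12 days, and Itgae, Maf and Icos lower. The shares thus restate those ratios in part and are not separate evidence of a different mix. In sums over cells, fewer cells of a state and less RNA per cell cannot be told apart.

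Within each range the interferon difference was present. The median log2 ratio of the type I genes was -0.86 in the resting and -0.88 in the effector range, and that of the GTPase list -1.25 and -0.80. Oas1a had log2 ratios of -4.02 and -3.70 there, and Ly6a -3.14 and -1.13. Igf2bp3 had log2 ratios of 3.83 and 3.33, and Rln3 of 2.40 and 1.93. By contrast, Nkg7 had a log2 ratio of -0.05 in the resting range and 1.22 in the effector range, and Cxcr6 had 1.09 and 1.71. Differences between the ranges were not tested.

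Sex was examined in the same way. Cells with an Xist UMI and no UMI of a Y-linked gene numbered 2234 and 879, and cells with the reverse 517 and 947. Each of the 30 genes with the highest and lowest ratios was at least 2-fold different in the same direction in both subsets. In Xist cells the log2 ratio of Igf2bp3 was 3.46, of Gzmb 2.88, of Oas1a -3.49 and of Hsph1 -1.93. In cells with a Y-gene UMI they were 3.86, 2.19, -4.10 and -2.77.

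**Figure D4:**
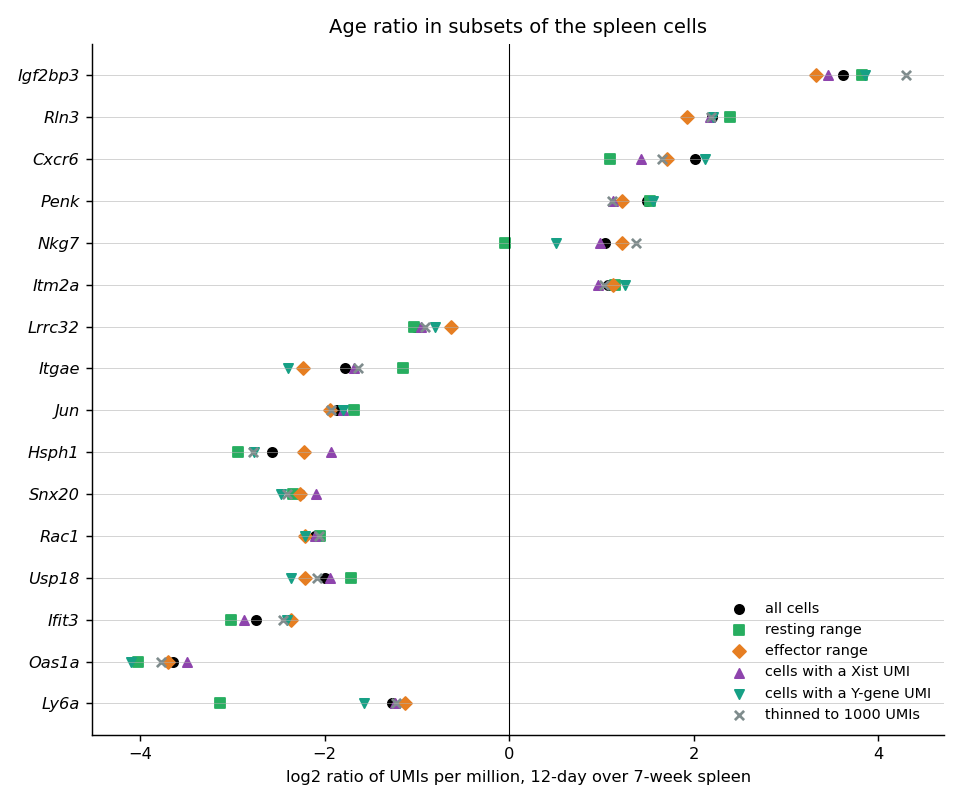
Log2 ratio of CPM, 12-day over 7-week spleen, of 16 genes in all cells and in 5 subsets or recomputations, each drawn with its own symbol. Nkg7 lies at -0.05 in the resting range and at 1.22 in the effector range, and Ly6a at -3.14 against -1.13, while Rac1, Snx20 and Jun keep nearly the same place.

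The liver libraries of the same ages, which share no library with the spleen, were set beside these values for 3642 and 1414 cells chosen by the same rule. Over 7074 genes measured in both tissues the age ratios had a Pearson r of 0.789 and a Spearman correlation of 0.789, where genes share their libraries and are not independent. In liver, 204 of these genes (2.88%) were at least 2-fold higher at 12 days and 336 (4.75%) at least 2-fold lower. Of the 105 spleen genes at least 2-fold higher 65 were also 2-fold higher in liver (61.9% of the spleen set and 31.9% of the liver set). Of the 184 spleen genes at least 2-fold lower 110 were also 2-fold lower in liver (59.8% and 32.7%). None was 2-fold different in opposite directions.

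Igf2bp3 had a ratio of 13.6 in liver against 12.3 in spleen, Oas1a 0.0849 against 0.0802, and Gzmb 12.8 against 8.21. Some other genes had a ratio further from 1 in spleen than in liver, with Rac1 at least 2-fold lower in both. Snx20 had a liver ratio of 0.726 against 0.207 in spleen, with a level of 145 CPM in 12-day liver and 27.7 CPM in 12-day spleen. Tmed7 had 0.744 against 0.231, Rac1 0.482 against 0.232, and Mcl1 1.06 against 0.439. The resting list had a median of 0.04 in spleen and -0.88 in liver, and the effector list 0.32 and 0.99. These differences between tissues were not tested.

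**Figure D5:**
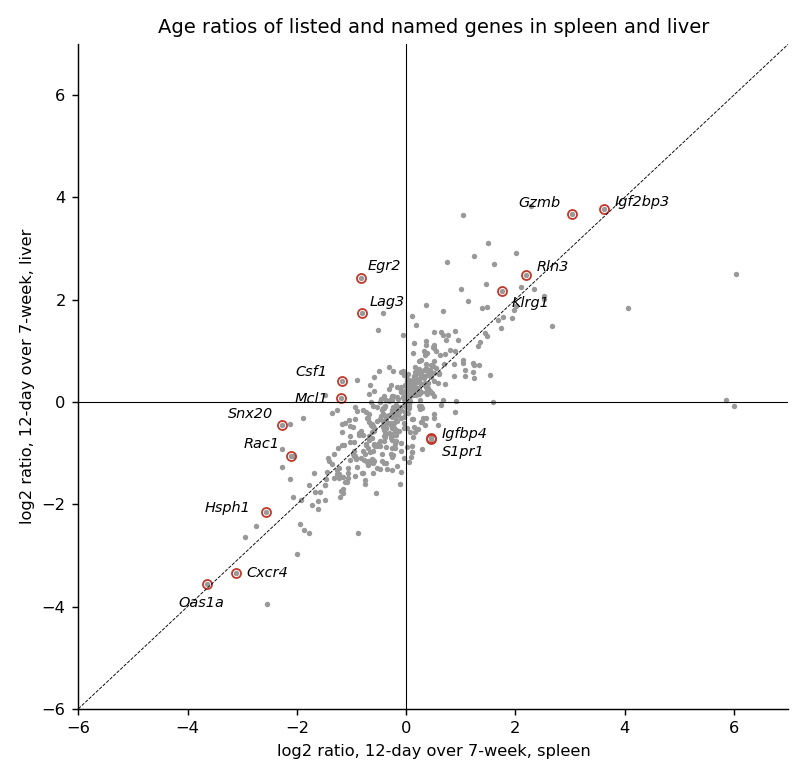
Log2 age ratio, 12-day over 7-week, in spleen (horizontal) and liver (vertical) for 486 listed and named genes measured in spleen, with equal ratios on the dashed line. Igf2bp3 and Oas1a lie near that line, Snx20 and Mcl1 lie above it, and Lag3, Egr2 and Csf1 have opposite signs in the tissues.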

How the data were processed

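Single-cell RNA was measured with a 10x Genomics 5' kit, per the labels' protocols. The authors deposited raw UMI counts per gene and barcode. Cell Ranger 4.0.0 wrote them, per the file headers. The build was mm10, per the submitters' processing notes, which also name Seurat 4.0.2. No source used here gives the annotation release. Barcode and feature files hold identifiers. Positions and transcript lengths came from GENCODE on GRCm38, matched for 32235 features (99.8%), and promoters from RefSeq.

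The members, the 30 gene lists and the markers were chosen with earlier results of these data known. Cells were filtered as the report gives, counts were summed per library, and the ratio of CPM got an exact conditional binomial interval (scipy 1.17.1), with a median distance to its bounds of 12.3%. The ratio script was tested on simulated data. Named genes are the 15 highest and 15 lowest ratios with a mean of at least 10 CPM and at least 100 UMIs in the higher library (leaving out sex-linked, haemoglobin, mitochondrial, ribosomal and antigen receptor genes and unnamed gene models), up to 4 members of each list with the largest ratio, and 9 genes always given. Other list members appear as examples, and these examples and the overlapping genes were chosen after their values were seen. Some items are not reported here. No doublet caller was run. TMM factors came from edgeR. Shares of cells with a UMI of a single gene are not given: the 32 barcodes rich in macrophage RNA at 12 days held a Cd3e UMI in 75.0%, so no barcodes free of T cell RNA could serve as background.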

Additional observations from a re-analysis of the deposited data

Results flagged for a closer look

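For 9 genes among those named or listed, the age ratio lay on opposite sides of 1 in spleen and liver, each at least 1.25-fold and with counting intervals that leave out 1. The difference itself was not tested. Lower at 12 days in spleen and higher in liver were Csf1 (ratio 0.445 in spleen, 1.32 in liver), Lag3 (0.575 and 3.32), Pdcd1 (0.703 and 2.64), Gimap7 (0.714 and 1.52) and Tox2 (0.748 and 3.34). Higher at 12 days in spleen and lower in liver were Gpr83 (1.27 and 0.728), S1pr1 (1.38 and 0.603), Igfbp4 (1.38 and 0.610) and Map3k8 (1.5 and 0.726). Egr2, with a mean below 10 CPM in liver, had ratios of 0.562 and 5.40 but rested on 2.17 CPM in 7-week liver.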

How the results depend on the processing

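The count of 124 genes at least 2-fold higher at 12 days became 191 with no limit on mitosis genes, 79 after centring on genes of like transcript length (chosen after seeing the data), 65 with a mean of at least 25 CPM and 1268 with no filter on low genes. The count of 191 genes at least 2-fold lower became 91 with a mean of at least 25 CPM and 2481 with no filter. Fewer or more genes are tested under the filters by construction, and otherwise the cause was not tested. Under the other settings both counts stayed within 1.5 times, from 102 to 173 and from 154 to 279. Leaving out cells with RNA of other lineages kept 86 of the 124 and 150 of the 191 genes. Of 2769 values of the 133 named genes under alternatives, 597 moved by more than the distance from the main value to its upper counting bound. Of the 66 named genes past 2-fold, 19 missed it in at least 1 alternative and 2 changed sign: Hist1h2ap to 0.26 with no limit on mitosis genes and Nkg7 to -0.05 in the resting range. Of the 67 under 2-fold, 7 changed sign in at least 1, Foxp3, Cd3e and Ikzf2 among them. No median past 1.5-fold changed sign. Values for genes that a setting used to choose cells were left out. With 1 library per group no library could be left out. No paired analysis was possible because each age is 1 library and the result comes from no test. Depth limits low genes most, since 7-week ratios at few CPM rest on few UMIs.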

Other observations

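Cold-inducible and heat-inducible genes differed in opposite directions, noticed after the values were seen. Cirbp and Rbm3, RNA-binding proteins induced by cooling, were at 284 against 88.1 CPM (3.22-fold higher at 12 days [3.03 to 3.43]) and at 1530 against 565 CPM (2.71-fold higher [2.64 to 2.78]). Of the chaperone genes looked at, Dnaja1 (260 against 628 CPM), Chordc1 (66.6 against 150 CPM) and Stip1 (63.8 against 129 CPM) were lower, as was Hsph1, while Hspa8 (2063 against 2722 CPM) and Hspd1 (144 against 197 CPM) differed less. In liver the ratio was 3.05 for Cirbp, 2.54 for Rbm3, 0.376 for Dnaja1 and 0.223 for Hsph1. The part of sample handling was not tested.

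Of 89 ribosomal protein genes 4 were at least 2-fold lower at 12 days: Rps29 (1834 against 5164 CPM), Rps27 (2928 against 6852), Rps28 (1793 against 4181) and Rpl38 (1740 against 4211). Their longest coding transcripts, of 390, 458, 437 and 457 bases, rank 3, 7, 5 and 6 from the shortest of the 89, whose median is 906 bases. Over all 89 genes the Spearman correlation of log2 ratio and length was only 0.157 (Pearson 0.360 with log2 length). In liver the ratios were 0.265, 0.407, 0.357 and 0.396. All ribosomal proteins took 27.1% of the UMIs at 12 days and 30.4% at 7 weeks.

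A few genes outside the lists, chosen after their values were seen, were higher at 12 days: Crip1 (2428 against 1037 CPM), Anxa2 (258 against 108 CPM), Zyx (286 against 138 CPM), Dstn (64.9 against 25.4 CPM) and Lmna (29.3 against 10.1 CPM). In the resting range their log2 ratios were 1.17, 1.65, 1.01, 1.69 and 2.03. Cybb, the phagocyte oxidase subunit, stood at 6.69 against 24.7 CPM, with macrophage markers at 77.0 against 61.4 CPM in sum. Tnfaip3, an inhibitor of NF-kappaB, was at 26 against 77.4 CPM.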
